A study of Homo sapiens with 6 samples.

Results

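HSF1 and 9 of the cytosolic and nuclear chaperone and co-chaperone genes it is known to act on were examined in HepG2 cells given ellagic acid (EA). The genes were chosen by symbol, as named members of the heat shock system, with earlier results of these data known. All 10 were found among the 52408 genes of the count table. The 10 genes are HSF1, HSPA1A, HSPA1B, HSPA8, DNAJB1, HSPH1, HSPB1, HSP90AA1, HSP90AB1 and BAG3, and all 10 passed the filter on low counts. HepG2 is a human liver cancer line, so both groups come from the same tumour. In the first group cells were cultured for 24 h with 50 µM EA, a plant polyphenol, from a stock in DMSO, and in the second with an equal volume of DMSO alone. RNA sequencing gave 3 libraries per group, and the labels do not say that they came from separate cultures, so each p-value is set against the spread among these libraries only, which could be technical.

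HSF1 is the main transcription factor of the heat shock response. In unstressed cells it is held inactive by chaperones, and when unfolded proteins draw those chaperones away it forms trimers and binds heat shock elements, which are inverted repeats of the letters GAA. The proteins made from its target genes work as a cycle: J-domain proteins such as DNAJB1 deliver clients to HSP70, nucleotide exchange factors such as HSPH1 and BAG3 release them, HSP90 matures kinases and steroid receptors, and small heat shock proteins such as HSPB1 hold unfolded proteins in solution. Many tumour cells, liver cancer included, carry high levels of these chaperones without any heat stress.

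The 10 genes did not move as a block. The nucleotide exchange factor genes HSPH1 and BAG3 rose with EA, by 2.51-fold and 1.87-fold, and DNAJB1 rose by 1.13-fold. Both HSP90 genes fell to between 0.516 and 0.571 of their DMSO level, the small heat shock protein gene HSPB1 fell to 0.228 of it, and HSPA1B and HSF1 itself fell to 0.774 and 0.850. HSPA1A and HSPA8 were not called. Thus 3 genes rose, 5 fell and 2 were not called at an adjusted p of 0.05 (quasi-likelihood F test of edgeR, Benjamini-Hochberg adjusted over 15648 genes). Of these calls, that of DNAJB1 was lost in 7 of 20 alternatives, that of HSF1 in 3 of 20 and that of HSPA1B in 1 of 18, so that 3 genes rose and 4 fell with offsets for transcript length and GC content, and 2 rose and 3 fell against a minimum fold of 1.2. Of all genes tested 81% were called, 40.5% higher and 40.5% lower, so the share of the 10 genes that was called, 8 of 10, was near the background. The median log2 fold change was -0.10 over the 10 genes and 0.00 over all genes tested. The median size without sign was 0.59 over the 10 and 0.89 over all genes. The scaling of libraries takes most genes as unchanged, which is in doubt where 81% were called. Rises and falls are therefore relative to the other genes, and each scaling used here gives relative levels only. The median over all genes was 0.039 with RLE scaling, 0.013 with upper-quartile scaling and 0.014 by library size only. With no filter on low counts it was 0.25, over a larger set of 32015 genes, with HSF1 at -0.36 and DNAJB1 at 0.04.

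**Figure D1:**
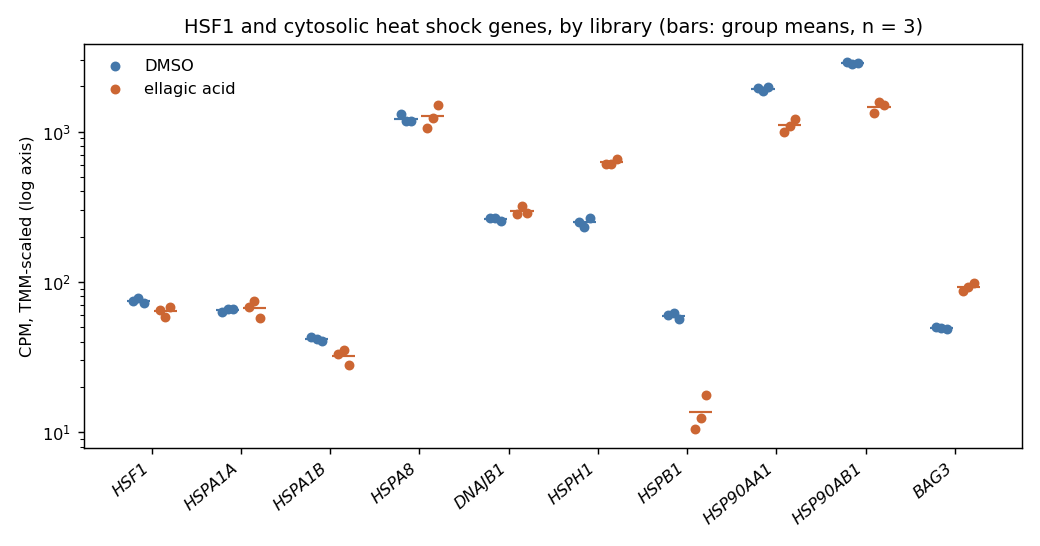
Level of each of the 10 genes in each library, in CPM with TMM-scaled library sizes on a log axis. Points are libraries (3 DMSO, 3 EA) and horizontal bars are group means; HSPH1 and BAG3 lie higher in the EA libraries, HSPB1 and both HSP90 genes lie lower, and HSPA8 and HSPA1A overlap between the groups.

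Libraries held 22987425 to 25973621 assigned reads in DMSO and 15738089 to 19202292 in EA, and 3 reads in 1 library correspond to 0.117 to 0.187 CPM (reads scaled to a common library size). EA replicate 3 lay apart from the other EA libraries on the second principal component (2.49% of the variance), at 33.8 where those were at -18.5 and -14.2. All 8 hepatocyte markers were read and all 8 fell with EA, their summed level going from between 48016 and 50857 CPM in DMSO to between 11807 and 12442. Of 6 blood and immune markers, PTPRC, CD3E and CD68 had 0 reads in all 6 libraries. The sum of the blood list, 1761 to 1841 CPM in DMSO and 291 to 355 in EA, was almost all lysozyme (LYZ). Of 4 endothelial markers 3 were in the count table, and these summed to 2.32 to 2.44 CPM in DMSO and 3.07 to 3.92 in EA. Of these, VWF rose from a mean of 1.07 to 3.14 CPM, CDH5 fell from 1.30 to 0.34, and KDR had at most 1 read in a library. The 5 fibroblast markers, of which DCN had 0 reads in all libraries, summed to 16.4 to 17.6 and 4.61 to 6.45 CPM. Most of both sums was PDGFRB, at a mean of 16.2 CPM in DMSO and 5.41 in EA. The part of these markers in the results was not tested.

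Because HSF1 acts through heat shock elements, the stretches around their transcript starts are shown, with the elements marked. They are RefSeq windows on GRCh38.p14, from 250 bases before to 50 bases after an annotated start, and were matched by symbol for 9 of the 10 genes (not HSF1), which have 14 windows. A core was searched as GAANNTTC or TTCNNGAA, each of which is its own reverse complement, so both strands are covered; the forms overlap where 3 units follow each other. A core was present in 8 of the 14 windows and in 4737 of all 35116 RefSeq windows of that length (13.5%), and a site of 3 units in 3 of 14 and in 0.49% of all. Counted by gene, 7 of 9 had a core in at least 1 window, against 16.2% of 27305 genes. The members are known HSF1 targets, so this is a description of the set and not a finding.

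Where a gene has several windows, the one with cores is printed. HSP90AA1, HSP90AB1 and HSPA8 are shown because theirs were the windows with 3-unit sites, HSPH1 and BAG3 because they had the largest increases and no core in their windows, and HSPA1A and HSPA1B because they are near-identical neighbours that changed unequally. Bases run 5′ to 3′ on the gene's strand, and capitals mark the GAA and TTC units of each core.
HSP90AA1, chr14:102086995-102087294, minus strand: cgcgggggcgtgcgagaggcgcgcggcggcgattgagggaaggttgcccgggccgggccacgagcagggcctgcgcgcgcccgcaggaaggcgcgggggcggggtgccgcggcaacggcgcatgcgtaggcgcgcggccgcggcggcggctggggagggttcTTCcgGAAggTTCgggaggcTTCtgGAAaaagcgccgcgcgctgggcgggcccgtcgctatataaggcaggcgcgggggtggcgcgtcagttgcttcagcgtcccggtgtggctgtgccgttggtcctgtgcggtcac
HSP90AB1, chr6:44247693-44247992, plus strand: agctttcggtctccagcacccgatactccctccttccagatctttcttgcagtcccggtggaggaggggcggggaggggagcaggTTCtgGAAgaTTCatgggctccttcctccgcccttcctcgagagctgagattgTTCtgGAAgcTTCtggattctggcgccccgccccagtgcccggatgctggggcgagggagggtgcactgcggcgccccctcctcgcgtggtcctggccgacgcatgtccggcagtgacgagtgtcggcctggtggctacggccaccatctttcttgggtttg
HSPA8, chr11:123062087-123062386, minus strand: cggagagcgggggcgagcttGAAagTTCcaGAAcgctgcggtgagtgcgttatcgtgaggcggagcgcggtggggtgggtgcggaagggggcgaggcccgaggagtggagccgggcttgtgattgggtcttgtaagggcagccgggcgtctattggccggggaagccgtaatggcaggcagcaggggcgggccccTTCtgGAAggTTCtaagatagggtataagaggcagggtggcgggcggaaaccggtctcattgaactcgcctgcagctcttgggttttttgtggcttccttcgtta
HSPH1, chr13:31162339-31162638, minus strand: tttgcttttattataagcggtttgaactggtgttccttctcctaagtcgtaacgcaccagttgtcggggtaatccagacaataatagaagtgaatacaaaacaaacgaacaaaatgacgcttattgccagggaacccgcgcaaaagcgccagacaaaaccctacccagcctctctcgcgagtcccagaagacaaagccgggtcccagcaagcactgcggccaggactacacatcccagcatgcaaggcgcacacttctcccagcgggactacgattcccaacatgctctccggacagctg
BAG3, chr10:119651130-119651429, plus strand: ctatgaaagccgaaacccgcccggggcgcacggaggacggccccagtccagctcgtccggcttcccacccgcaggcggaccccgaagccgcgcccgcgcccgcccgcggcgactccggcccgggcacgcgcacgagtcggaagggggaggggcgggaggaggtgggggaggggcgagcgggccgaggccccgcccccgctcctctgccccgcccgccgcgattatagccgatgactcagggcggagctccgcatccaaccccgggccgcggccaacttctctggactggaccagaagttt
HSPA1A, chr6:31815293-31815592, plus strand: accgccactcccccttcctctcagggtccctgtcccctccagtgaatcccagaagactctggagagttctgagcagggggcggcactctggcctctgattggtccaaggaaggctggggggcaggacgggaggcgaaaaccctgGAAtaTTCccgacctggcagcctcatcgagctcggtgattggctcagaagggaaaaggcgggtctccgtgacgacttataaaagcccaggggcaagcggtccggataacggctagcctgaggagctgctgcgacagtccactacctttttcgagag
HSPA1B, chr6:31827488-31827787, plus strand: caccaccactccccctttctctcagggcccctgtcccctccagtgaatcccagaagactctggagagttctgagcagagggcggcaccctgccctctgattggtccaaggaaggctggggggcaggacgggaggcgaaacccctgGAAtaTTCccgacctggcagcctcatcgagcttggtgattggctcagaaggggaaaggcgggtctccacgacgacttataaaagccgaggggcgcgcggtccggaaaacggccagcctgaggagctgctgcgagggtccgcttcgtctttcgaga

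In HSP90AA1 the 3-unit site began 88 bases before 1 of its annotated starts and a separate core 68 bases before that start. The window of its other start had no core. HSP90AB1 had 3-unit sites that began 165 and 112 bases before 1 of its annotated starts, and no core in the windows of its other starts. HSPA8 had 3-unit sites that began 230 and 55 bases before its start. HSPA1A and HSPA1B each had a single core, 106 and 105 bases before the start. DNAJB1 had cores 77 and 47 bases before the second of its annotated starts and 1 base after another, and HSPB1 had a core 182 bases before its start. No core in the HSPH1 or BAG3 window says only that these letters are not in that stretch.

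**Figure D2:**
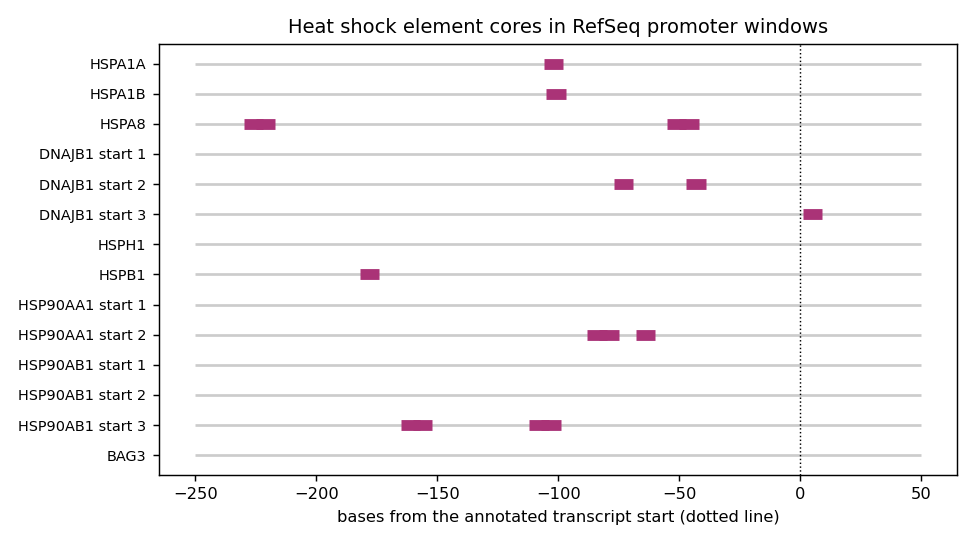
Position of heat shock element cores (coloured blocks) in the 14 RefSeq windows of 9 genes; the x axis is the distance in bases from the annotated transcript start (dotted line), and genes with several starts have a line for each. HSPA8, HSP90AA1 and HSP90AB1 carry adjoining cores that form 3-unit sites, while the HSPH1 and BAG3 windows carry no core.

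HSF1 (ENSG00000185122), the transcription factor itself, stood at 74.7, 77.8 and 71.6 CPM in the DMSO libraries and at 64.5, 58.6 and 67.6 CPM in the EA libraries. All 3 EA values lay below all 3 DMSO values, as was so in either direction for 82.9% of all genes tested. For 8 of the 10 genes, all but HSPA1A and HSPA8, the groups did not overlap. The mean of HSF1 went from 74.7 ± 3.09 to 63.6 ± 4.57 CPM (SD, n = 3), and HSF1 fell by 0.23 on the log2 scale (SE 0.07, adjusted p = 0.00912 in edgeR's quasi-likelihood test). The call was lost with offsets for transcript length and GC content (log2 fold change -0.06, adjusted p = 0.438 in edgeR) and against a minimum fold of 1.2 (adjusted p = 0.444). Exons of HSF1 overlap DGAT1 on the opposite strand over 2.6% of their length in GENCODE 29, and whether the counting used strand is not stated. In bulk RNA, fewer cells expressing a gene and less of its RNA per cell cannot be told apart, here and in the results that follow.

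Over the 6 libraries, the genes whose pattern was most like that of HSF1 included SREBF2 and IGF2R, among 9271 genes with a mean of at least 10 CPM. The measure was the Euclidean distance of log2 CPM centred on the DMSO mean, at 0.085 and 0.095 for these genes. For DNAJB1 the nearest were TSR1, TOB2 and HARS2, at 0.049 to 0.069. These are descriptions with no test.

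HSPA8 (ENSG00000109971), the constitutive HSP70 that folds new proteins and strips clathrin from vesicles, was at 1298, 1166 and 1180 CPM in DMSO. In EA it was at 1052, 1223 and 1512 CPM. The groups overlapped, with the lowest and the highest of the 6 values both in EA libraries. The log2 fold change was 0.06 (SE 0.12, adjusted p = 0.668 in edgeR's quasi-likelihood test). Without EA replicate 3, the library with the highest value, it was -0.12 (adjusted p = 0.0749 in edgeR). The sign also changed without DMSO replicate 3 (-0.001) and with no filter on low counts (-0.073), so the sign was not stable.

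HSPA1A (ENSG00000204389) and HSPA1B (ENSG00000204388) encode the stress-inducible HSP70, and their products are the classical readout of HSF1 activity. HSPA1A was at 63.2, 66.2 and 65.6 CPM in DMSO and at 67.5, 74.0 and 57.6 CPM in EA, with overlapping groups and a log2 fold change of 0.03 (SE 0.09, adjusted p = 0.746 in edgeR). HSPA1B was at 42.5, 41.8 and 40.1 CPM in DMSO and at 33.2, 35.3 and 27.9 CPM in EA, without overlap. It fell by 0.37 on the log2 scale (SE 0.09, adjusted p = 0.00159 in edgeR), and the call was lost against a minimum fold of 1.2 (adjusted p = 0.06).

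The HSPA1 genes share long identical stretches: 67.1% of all 150-base windows of the HSPA1A transcript and 70% of those of HSPA1B also occur in a transcript of another gene in GENCODE 29, so how reads were split between them rests on the authors' handling of such reads, which is not stated. Another GENCODE 29 gene, AL671762.1, holds some of these shared windows and overlaps 36.5% of the exon bases of HSPA1B on the same strand. Windows shared with other genes were 0 for the other 8 members. Summed, the HSPA1 genes were at 106 ± 1.32 CPM in DMSO and 98.5 ± 12.1 in EA (SD, n = 3), with a log2 fold change of -0.11 (SE 0.08, adjusted p = 0.215 in edgeR). The sum for the stress-inducible HSP70 was therefore not called.

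HSPA1A took 59.8%, 61.3% and 62.0% of the HSPA1 reads in DMSO and 67.0%, 67.7% and 67.4% in EA. The 95% Wilson intervals of the DMSO libraries lay between 57.9% and 63.8%, and those of the EA libraries between 64.7% and 69.7%, so they did not meet. These intervals cover counting error only. A share within a library does not depend on library scaling; this one was computed after the values of both genes had been seen and is given with no test.

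The inducible and constitutive forms were compared within each library. The log2 ratio of HSPA1A plus HSPA1B reads to HSPA8 reads was -3.62, -3.43 and -3.48 in DMSO and -3.38, -3.48 and -4.14 in EA. EA replicate 3 was the lowest of all 6, and the others lay within the DMSO range or just above it. The difference of means was -0.16 (two-sided exact permutation test, p = 0.8, where the smallest possible p is 0.1), and without EA replicate 3 it was 0.08 (p = 0.5, exact permutation test).

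DNAJB1 (ENSG00000132002), the J-domain protein that activates HSP70 and is induced strongly by heat, was at 264, 267 and 255 CPM in DMSO. In EA it was at 282, 318 and 285 CPM, above every DMSO value. Its log2 fold change was 0.17 (SE 0.07, adjusted p = 0.0281 in edgeR). The call was lost without DMSO replicate 1, 2 or 3 or EA replicate 2 (log2 fold change 0.10 to 0.16, adjusted p = 0.0746 to 0.192 in edgeR), with no filter (0.04, adjusted p = 0.666) and against a minimum fold of 1.2 (adjusted p = 0.772). DNAJB1 exons overlap TECR on the opposite strand over 5.7% of their length.

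HSPH1 (ENSG00000120694), the HSP110 protein that serves as a nucleotide exchange factor for HSP70 and helps to dissolve aggregates, had the largest increase of the 10. It was at 249.8, 233 and 265 CPM in DMSO and at 612, 611 and 659 CPM in EA. Every EA library was far above every DMSO library. The log2 fold change was 1.33 (SE 0.07, adjusted p = 9.06e-11 in edgeR), larger than that of 82% of the genes tested. Over 20 alternative settings it stayed between 1.10 and 1.37, and each kept the call.

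BAG3 (ENSG00000151929) encodes a co-chaperone that links HSP70 to small heat shock proteins and steers damaged proteins into selective autophagy. It was at 49.9, 49.5 and 48.8 CPM in DMSO and at 86.8, 91.9 and 98.4 CPM in EA, again without overlap. The log2 fold change was 0.90 (SE 0.07, adjusted p = 1.08e-08 in edgeR), and over the 20 alternatives it lay between 0.77 and 1.00 with the call kept in each.

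HSP90AA1 (ENSG00000080824) and HSP90AB1 (ENSG00000096384) encode the inducible alpha and the constitutive beta form of cytosolic HSP90. HSP90AA1 was at 1956, 1850.4 and 1974 CPM in DMSO and at 991, 1088 and 1218 CPM in EA. HSP90AB1 was at 2887, 2793 and 2840.3 CPM in DMSO and at 1335, 1561 and 1502 CPM in EA. In neither gene did the groups overlap. HSP90AA1 fell by 0.81 on the log2 scale (SE 0.08, adjusted p = 1.37e-07) and HSP90AB1 fell by 0.95 (SE 0.07, adjusted p = 8.72e-09, both in edgeR's quasi-likelihood test). HSP90AB1 took the 12th highest read count of all genes in each DMSO library and the 43rd to 51st highest in the EA libraries. Together the 2 genes held 0.464% to 0.480% of all assigned reads in DMSO and 0.237% to 0.268% in EA. Exons of HSP90AA1 overlap WDR20 on the opposite strand over 3.8% of their length. The pseudogenes of the HSP90 genes, 4 for each, added 0.198% and 0.169% to their reads.

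The balance between the HSP90 forms was compared within libraries. The log2 ratio of HSP90AA1 to HSP90AB1 reads was -0.56, -0.59 and -0.52 in DMSO and -0.43, -0.52 and -0.30 in EA. The groups did not overlap, but DMSO replicate 3 and EA replicate 2 nearly met at -0.525 and -0.521. The ratio was 0.14 higher in EA (two-sided exact permutation test, p = 0.1, the smallest this design can give). Without EA replicate 3, which had the highest ratio, the difference was 0.085 and the groups still did not overlap (exact permutation test, p = 0.2).

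**Figure D3:**
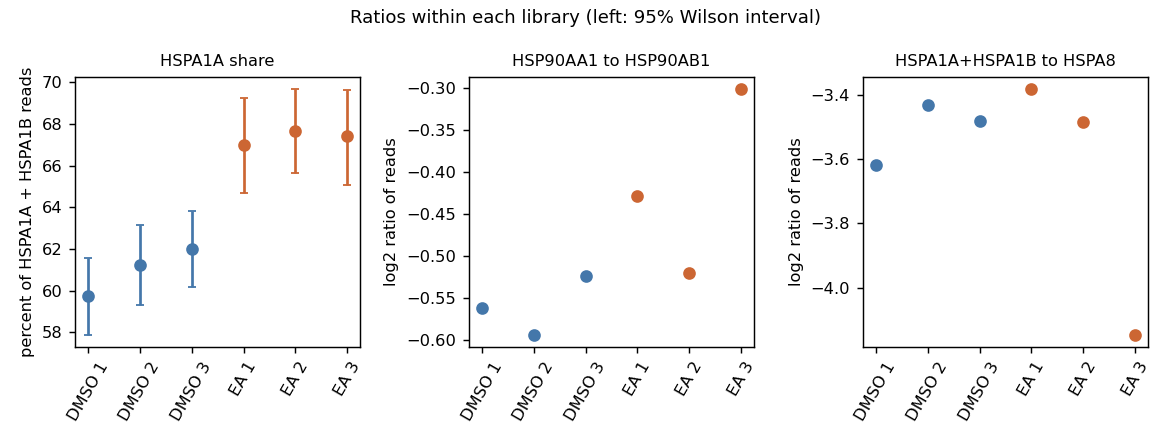
Ratios within each library, by group and replicate on the x axis. Left, HSPA1A as a percent of HSPA1A plus HSPA1B reads with 95% Wilson intervals; middle, log2 ratio of HSP90AA1 to HSP90AB1 reads; right, log2 ratio of HSPA1A plus HSPA1B to HSPA8 reads. The HSPA1A share is 59.8% to 62.0% in DMSO and 67.0% to 67.7% in EA, and EA replicate 3 stands apart at the right, at -4.14.

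HSPB1 (ENSG00000106211), the small heat shock protein known as HSP27, which protects actin filaments and binds unfolded proteins, had the largest decrease of the 10. It was at 60.3, 61.5 and 56.2 CPM in DMSO and at 10.4, 12.4 and 17.7 CPM in EA. The EA libraries spread more widely in proportion than the DMSO libraries, with EA replicate 3 the highest, yet all 3 stayed far below DMSO. HSPB1 fell by 2.13 on the log2 scale (SE 0.15, adjusted p = 3.71e-07 in edgeR), lower than all but 6.1% of genes tested. Over 20 alternatives the log2 fold change lay between -2.40 and -1.99 with the call kept. HSPB1 has the shortest transcript of the 10, at 909 bases, and with offsets for length and GC content it fell by 2.18.

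**Figure D4:**
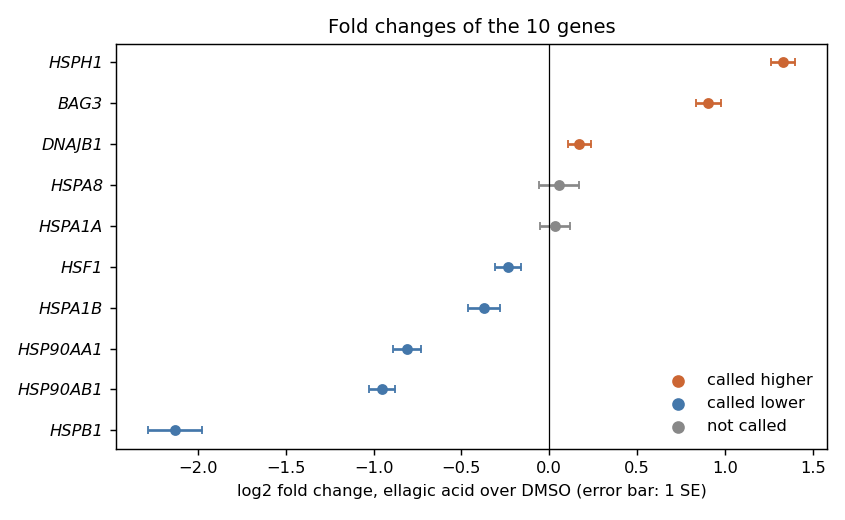
Log2 fold change of EA over DMSO for the 10 genes, ordered by size, with error bars of 1 SE from edgeR's fit. HSPH1 lies highest at 1.33 and HSPB1 lowest at -2.13, and HSPA8 and HSPA1A, in grey, were not called.

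Compared per kilobase of transcript (CPM per kilobase of the principal GENCODE 29 transcript), the order of levels shifted. In DMSO the order was HSP90AB1 at 1062 ± 17.6, HSP90AA1 at 570.2 ± 19.8, HSPA8 at 493 ± 29.5, DNAJB1 at 116 ± 2.58, HSPB1 at 65.3 ± 3.07 and HSPH1 at 48.0 ± 3.08 (SD, n = 3). HSF1, HSPA1A, BAG3 and HSPA1B followed, from 34.9 ± 1.44 down to 16.5 ± 0.489, and no neighbours in that order overlapped across libraries. In EA the order was HSP90AB1 at 548 ± 43.9, HSPA8 at 513 ± 94.5, HSP90AA1 at 325 ± 33.7, DNAJB1 at 130.3 ± 8.98, HSPH1 at 121 ± 5.32 and BAG3 at 35.9 ± 2.26. HSF1, HSPA1A, HSPB1 and HSPA1B came last, at 29.7 ± 2.13, 26.7 ± 3.33, 14.8 ± 4.12 and 12.7 ± 1.53. Neighbours whose libraries overlapped in EA were HSP90AB1 and HSPA8, DNAJB1 and HSPH1, HSF1 and HSPA1A, and HSPB1 and HSPA1B. HSPB1 thus stood above HSPH1 in DMSO and below BAG3 in EA. The places of HSPA1A and HSPA1B are uncertain in both orders. Their levels were divided by the whole transcript length, of which 67.1% and 70% of windows are shared with another gene. If shared reads were left out of the counts, both levels are too low.

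Further genes of the same system were taken from 8 lists, also chosen with earlier results of these data known. Each list is described by its counts beside the 40.5% of all tested genes that were higher and the 40.5% that were lower. Up to 4 called genes of each list with the smallest p, and those called against the majority, are named; pseudogenes were skipped. Some genes stand in more than 1 list.

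Among relatives and regulators of HSF1, 5 of 8 tested genes rose and 3 fell (median log2 fold change 0.34). EP300, an acetyltransferase that acts on HSF1, rose from 186 ± 0.391 to 542 ± 40.6 CPM, and FBXW7, the ubiquitin ligase subunit that marks HSF1 for degradation, rose from 22.9 ± 0.394 to 58.5 ± 3.36 (SD, n = 3). HSBP1, which binds the trimer region of HSF1, went the other way, from 114 ± 3.64 to 56.6 ± 6.22 CPM, and its relative HSBP1L1 from 17.9 ± 0.699 to 7.15 ± 1.2. The log2 fold changes of these genes were 1.54, 1.35, -1.0 and -1.32 (SE 0.07 to 0.13, adjusted p = 1.69e-11 to 1.08e-07 in edgeR).

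Of 8 tested genes among the other cytosolic HSP70 and HSP110 genes, 2 rose, 3 fell and 3 were not called (median 0.05). HSPA4L, an HSP110 relative of HSPH1, fell from 63.5 ± 3.73 to 26.2 ± 4.02 CPM, opposite to HSPH1. HSPA12A rose from 27.4 ± 0.448 to 47.7 ± 1.33 CPM and HSPA12B fell from 4.80 ± 0.383 to 1.39 ± 0.448. HSPA6, an HSP70 gene that is nearly silent without stress, had 0, 1 and 0 reads with DMSO and 73, 119 and 22 with EA. Its ratio was 294 (95% counting interval 52.2 to 11670, counting error only; edgeR adjusted p = 0.00108), and EA replicate 3 had the fewest reads of its group. The mean level with EA, 4.0 ± 2.61 CPM, remained low beside HSPA1A. HSPA7, a near-identical copy with which it may share reads, had 3 reads in all with EA and 0 with DMSO.

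Of 11 J-domain genes in the list 6 rose and 4 fell, and the remaining 1 was not called (median log2 fold change 0.395). DNAJB2, which delivers ubiquitinated clients to the proteasome, rose from 53.5 ± 3.09 to 229 ± 17.0 CPM (log2 fold change 2.10, SE 0.08). DNAJB6, which suppresses aggregation, rose from 104 ± 2.64 to 174 ± 6.39. DNAJC9, a histone chaperone, fell from 45.8 ± 1.70 to 24.2 ± 2.82 CPM, and DNAJC8 from 103 ± 2.94 to 63.4 ± 5.26. The others that fell were DNAJA1, from 329 ± 18.1 to 204 ± 19.4 CPM, and DNAJC7, from 116 ± 4.78 to 77.4 ± 6.29.

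In a list of 8 further partners of HSP70 in nucleotide exchange and ubiquitination, which does not hold HSPH1 or BAG3, 0 rose, 4 fell and 4 were not called (median -0.32). The 4 that were not called were BAG1, BAG4, BAG5 and BAG6. Those that fell were HSPBP1, from 39.9 ± 2.56 to 16 ± 0.279 CPM, the ubiquitin ligase STUB1 (CHIP), from 22.4 ± 2.23 to 6.97 ± 1.75, BAG2, from 74.0 ± 2.96 to 45.1 ± 4.89, and ST13, from 301 ± 9.94 to 216 ± 22.6. With offsets for length and GC content 7 of the 8 fell.

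The other small heat shock protein genes included larger changes than any of the 10, with 4 of 6 tested genes higher and 2 lower (median 2.80). HSPB8, the partner with which BAG3 forms a complex in chaperone-assisted autophagy, rose from 2.85 ± 0.0616 to 129.5 ± 28.4 CPM (log2 fold change 5.51, SE 0.18, adjusted p = 2.29e-09 in edgeR). CRYAA, known as a lens crystallin, fell from 27.9 ± 2.19 to 0.876 ± 0.118 CPM (-4.99, SE 0.15). HSPB11, which is in the list by its symbol only, fell from 20.04 ± 0.7 to 11.0 ± 0.737 CPM. HSPB6 had 9 reads in all with DMSO and 89 with EA, and CRYAB, also called higher, had 27 and 73. The list median lies between the log2 fold changes of HSPB6 and CRYAB, 3.72 and 1.88, so it rests on low counts. HSPB7 had 0 and 36 reads, at least 16.5-fold higher with EA when the DMSO group is set to its floor of 3 reads in total.

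Among co-chaperones of HSP90, 11 of 14 tested genes fell, 1 rose and 2 were not called (median -0.60); AHSA2P, 1 of those that fell, is a pseudogene. FKBP4, which joins steroid receptor complexes, fell from 138 ± 5.84 to 54.9 ± 6.24 CPM, the immunophilin PPID from 61.9 ± 3.43 to 29.2 ± 0.507, and FKBP5 from 98.9 ± 1.68 to 53.0 ± 2.78. CDC37L1 was the 1 that rose, from 18.2 ± 0.981 to 40.3 ± 1.77 CPM.

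Among 16 other genes that heat induces through HSF1, 4 rose, 11 fell and 1 was not called (median -0.67). The mitochondrial chaperonin genes HSPE1 and HSPD1 fell from 234 ± 8.98 to 41.6 ± 4.83 CPM and from 2480.1 ± 120 to 957 ± 27.1. The collagen chaperone SERPINH1 fell from 107 ± 6.87 to 19.5 ± 2.05, and the ubiquitin gene UBB from 448 ± 8.97 to 158 ± 15.9. Against them, DEDD2 rose from 18.2 ± 2.06 to 51.9 ± 4.62 CPM and ZFAND2A from 59.7 ± 1.58 to 84.7 ± 6.84, and HSPA6, described above, was also among those that rose.

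In the endoplasmic reticulum and mitochondria, 6 of 7 related HSP70, HSP90 and HSP60 genes fell and 1 rose (median -1.31). TRAP1, the mitochondrial HSP90, fell from 148 ± 4.97 to 40.1 ± 2.52 CPM (log2 fold change -1.88, SE 0.07), and HSP90B1, its counterpart in the endoplasmic reticulum, had a log2 fold change of -1.31 (SE 0.07). HSPA13, an HSP70 relative of the microsomes, rose from 67.4 ± 3.06 to 131 ± 10.8 CPM.

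**Figure D5:**
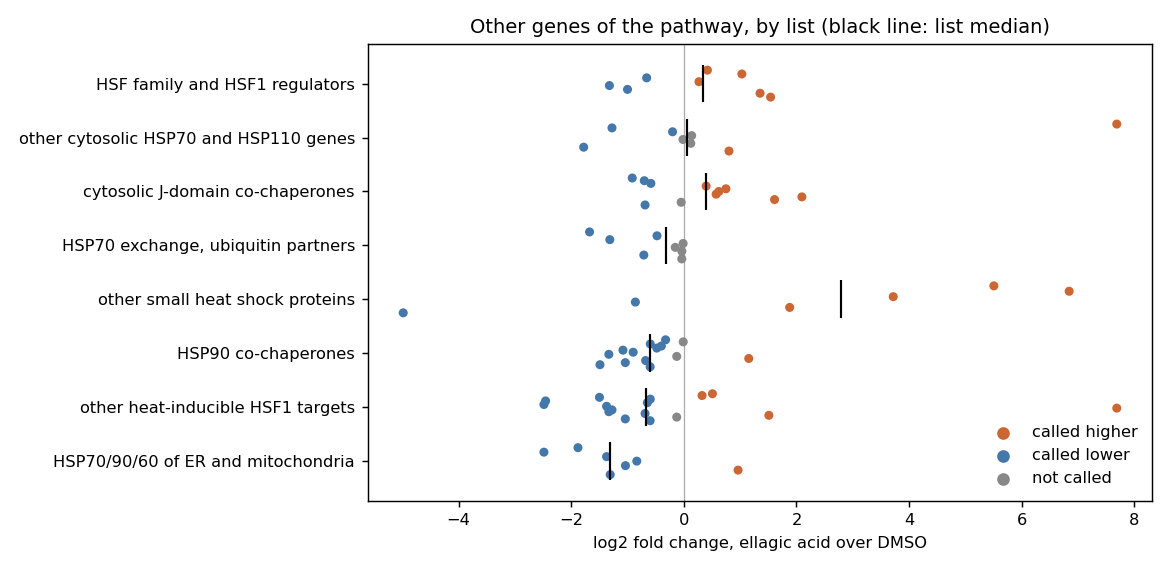
Log2 fold change of EA over DMSO for each tested gene of the 8 lists (points, coloured by call) with the list median as a black line. The points at 7.69 (HSPA6, in 2 lists) and at 6.84 (HSPB7) come from 1 and 0 DMSO reads and depend on the fit's prior count; HSP90 co-chaperones and the organelle forms lie mainly to the left of 0.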

How the data were processed

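RNA from 6 HepG2 samples was sequenced as paired reads. The authors deposited raw read counts per gene, whole numbers that are not normalised, for 52408 genes. The build was hg19 and the tools named were HTSeq 0.6.1, HISAT, cutadapt 1.9.1 and bcl2fastq 2.17.1.14, per the submitters' processing notes. Not given in the sources used here are the annotation release, the strand setting and how reads mapping to several genes were handled. Columns were matched to samples by treatment and replicate number.

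Genes were filtered with filterByExpr (15648 left), scaled by TMM and tested, EA against DMSO, with edgeR 4.0.16 in R 4.3.3 (quasi-likelihood, robust, Benjamini-Hochberg adjustment over all genes tested). The SE is the log2 fold change over the square root of F. The common biological coefficient of variation was 7.96%. Alternatives were DESeq2 1.42.0, limma-voom (limma 3.58.1), other scalings, filters and thresholds, offsets for length and GC content (99.9% of tested genes, GENCODE 29 on GRCh38), a replicate block, summed copies and each library left out; summing HSP90 pseudogenes was added after the data were seen. On simulated counts with 15258 genes, 40 of 50 genes changed 1.5-fold and 47 of 50 changed 2-fold were recovered, with 9 false calls. Few genes were changed there, up or down at random, and all genes had the same coefficient of variation. The simulation therefore does not show how scaling and false calls behave where most genes change. The 10 genes and the 8 lists were chosen with earlier results of these data known. Named list genes were up to 4 called genes by smallest p, plus up to 2 called against the list's majority. BAG1, BAG4, BAG5, BAG6, AHSA2P, HSPA7, HSPB7, CRYAB, DNAJA1 and DNAJC7 were named outside that rule after their values were seen. Some genes that the rule names are not reported here.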

Additional observations from a re-analysis of the deposited data

How the results depend on the processing

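HSPH1, BAG3, HSP90AA1, HSP90AB1 and HSPB1 kept direction and call under all 20 alternatives run for each. The counts of the 10 genes called, 3 higher and 5 lower, were 2 and 3 against a minimum fold of 1.2; without a replicate in turn they were 2 to 3 higher and 5 lower throughout. The log2 fold change of HSPA1A changed sign with no filter (-0.10), when summed with HSPA1B (-0.11), with HSP90 pseudogenes summed as well (-0.13), without DMSO replicate 1 (-0.018) and without EA replicate 2 (-0.066); without 1 replicate in turn it ran from -0.066 to 0.1. That of HSPA8 changed sign with no filter (-0.073), without DMSO replicate 3 (-0.001) and without EA replicate 3 (-0.12), with a range of -0.12 to 0.159 without 1 replicate in turn. Without 1 replicate in turn the HSPA1A plus HSPA1B to HSPA8 log2 difference ran from -0.304 to 0.077, and the HSP90AA1 to HSP90AB1 difference from 0.085 to 0.195; the cause of the changes was not tested. Over all genes the median log2 fold change was 0.00 as reported, 0.25 with no filter (32015 genes) and -0.12 with offsets for length and GC content.

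The replicate block left 3 genes higher and 5 lower and changed no call among the 10. Same-numbered EA and DMSO libraries share only a number: correlations of their deviations were -0.084 to 0.027, and 12537 genes were called with the block against 12680. With its own copies summed, HSPA1B has no value of its own. Depth did not limit the 10 genes, the lowest of which had 167 reads in a library, but limits HSPA6, HSPA7, HSPB6, HSPB7 and CRYAB.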
